A study of Mus musculus with 32 samples.

Results

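Voltage-gated and potassium ion channel genes were followed in mouse frontal cortex across 2 genotypes and 4 amounts of input RNA. The genes were chosen by symbol: Kcn, Cacna, Cacnb or Cacng at the start, or Hcn or Scn followed by a digit, no antisense or pseudogene ending, and at least 1 count in at least 4 of the 8 libraries made from 50 ng. Detection at 50 ng was therefore part of the choice and is given only as a description. Of 33000 genes in the count table, 139 carried such a symbol and 117 passed the detection rule. They comprised 10 sodium channel genes, 25 calcium channel genes, 4 Hcn genes, 77 potassium channel genes and Kcnq1ot1, a long noncoding RNA antisense to Kcnq1 that was taken in by the letters of its name.

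The libraries were prepared with 3’Pool-seq, in which oligo-dT primed cDNA is barcoded per sample and pooled, and fragments from the 3′ ends of transcripts are sequenced. The material was total RNA from the frontal cortex of C57BL/6 wild-type mice (WT) and of homozygous GFAP-IL6 mice, all 3 months old. GFAP-IL6 mice carry an interleukin-6 transgene under the GFAP promoter, which is active in astrocytes. Per the labels, 50, 10, 1 or 0.5 ng of RNA went into reverse transcription, with 4 replicates per genotype and amount, 32 libraries in 8 groups. The labels do not say whether the replicates are separate animals, so the p-values measure the spread between these libraries, which may in part be technical. The labels also do not say whether a replicate number marks the same RNA at the 4 amounts. Agreement between amounts is therefore not taken as independent replication.

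Voltage-gated channels open and close with the membrane potential. Sodium channels carry the upstroke of the action potential, calcium channels couple depolarization to transmitter release and to signaling inside the cell, and potassium channels repolarize the membrane and set its resting level. Most of these families are known for neurons of the cortex, while Kcnj10 (Kir4.1) and Kcnj16 are known for astrocytes, Kcnk13 for microglia, Kcnj8 for the mural cells of vessels, and Kcnj13 and Kcne2 for the choroid plexus, the epithelium that secretes cerebrospinal fluid.

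Total counts per library were 1071895 to 7538356 at 50 ng, 1064514 to 9840302 at 10 ng, 261378 to 2800270 at 1 ng, and 295022 to 2722389 for the smallest amount. Levels are given as CPM, each gene's count divided by the total of its library and scaled to 1000000 counts. The limit that a count of 0 allows, 3 counts, was 0.305 to 2.82 CPM at 10 ng and 1.10 to 10.2 CPM at 0.5 ng, for counting error only. Il6, the product of the transgene, was at 0 to 0.277 CPM in WT and 0.717 to 8.40 CPM in GFAP-IL6 libraries at 50 ng, and at 0 to 0.758 against 1.88 to 10.1 CPM at 10 ng. At 1 ng the library labelled WT replicate 3 had 13 Il6 counts and GFAP-IL6 replicates 2 and 3 had 0, and at 0.5 ng all 8 libraries had 0. The summed level of 8 microglial markers was 453 to 513 CPM in WT and 601 to 1358 CPM in GFAP-IL6 at 50 ng, without overlap, whereas that of 7 neuronal markers overlapped, at 6519 to 7279 against 6225 to 6931 CPM. At 1 ng the microglial sum of WT replicate 3 was 496 CPM, beside 818 to 1299 CPM in the GFAP-IL6 libraries. In bulk tissue, fewer cells of a type and less RNA per cell cannot be told apart.

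The channel genes covered a wide range of levels. CPM are not divided by gene length here, since the protocol reads the 3′ end of each transcript. Of the 117 genes, 16 had a mean above 100 CPM over the 8 libraries at 50 ng, 53 lay between 10 and 100 CPM, 31 between 1 and 10 CPM, and 17 at or below 1 CPM. The median was 17.3 CPM, beside 13.6 CPM for the 15715 genes passing the same detection rule. The 10 highest genes held 43.6% of the summed level. Just inside the rule, with counts in 4 libraries, were Kcne3, Kcnj5 and Kcnk5 with means of 0.425, 0.487 and 0.246 CPM. Just outside, with counts in 3 libraries, were, among others, Kcnq1, Kcng3 and Kcnn4 with 0.199, 0.295 and 0.0860 CPM. No gene had passed through 1 genotype alone, and 97 had counts in all 8 libraries.

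**Figure D1:**
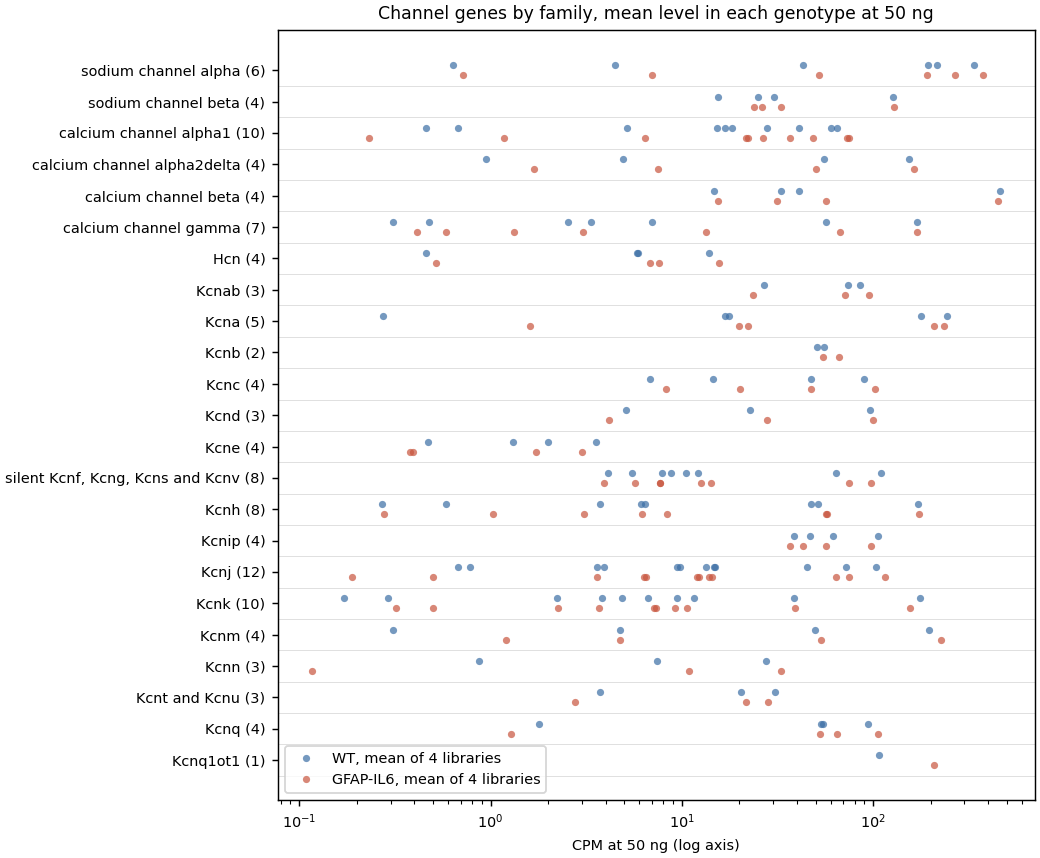
Mean CPM at 50 ng (log axis) of each of the 117 channel genes by family, in WT (blue) and GFAP-IL6 (red), each point a mean of 4 libraries and the number of genes in parentheses. The genotypes lie close together in most genes, while the mean of Kcnq1ot1 was 108 CPM in WT and 208 CPM in GFAP-IL6.

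Among the pore-forming sodium channel subunits, Scn2a1 (Nav1.2) had the highest mean, 356 ± 70.9 CPM (SD over 8 libraries at 50 ng, both genotypes, as for the values that follow). Scn8a (Nav1.6, the main channel of the mature axon initial segment) was at 241 ± 61.3 and Scn1a (Nav1.1, prominent in interneurons) at 193 ± 30.3 CPM, less than 1 SD of Scn8a apart. Scn3a, best known for the embryonic brain, was at 47.5 ± 17 CPM. Of the auxiliary β subunits, Scn2b was highest at 128 ± 28.6 CPM, above Scn4b at 28.2 ± 8.69 CPM.

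The highest channel gene was an auxiliary subunit of calcium channels. Cacnb4 was at 456 ± 64.6 CPM, with 346 CPM in its lowest and 556 CPM in its highest library. The α2δ subunit Cacna2d1, a binding site of gabapentin, was at 159 ± 33.7 CPM. The pore-forming genes were lower. Cacna1e (R-type) at 68.5 ± 22.5 and Cacna1a (P/Q-type) at 67.7 ± 24.4 CPM differed by less than their spread, Cacna1b (N-type) was at 44.5 ± 22.0 CPM, and the L-type genes Cacna1d and Cacna1c were at 21.7 ± 9.24 and 18.7 ± 6.59 CPM. Of the γ subunits, several of which are auxiliary proteins of AMPA receptors, Cacng3 was at 169.8 ± 33.6 and Cacng2 (stargazin) at 61.6 ± 20.96 CPM, whereas Cacng8 was at 0.447 ± 0.631 CPM.

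Among potassium channels, the axonal subunits Kcna1 and Kcna2 were at 239 ± 32.8 and 194 ± 43.3 CPM, and the large-conductance calcium-activated channel Kcnma1 at 211 ± 54.1 CPM. Kcnh7, of the ether-à-go-go family, reached 172 ± 30.1 CPM and the leak channel Kcnk1 165 ± 28.0 CPM. The G protein-gated subunit Kcnj3 was at 109.5 ± 14.2 CPM. The M-current subunit Kcnq3 was at 99.8 ± 29.8, above Kcnq5 at 53.8 ± 8.35 CPM. Kcnd2, which carries the A-type current, and Kcnip4, a calcium-binding partner of Kcnd channels, were close at 98 ± 22.7 and 102 ± 13.2 CPM. Kcnc1, known for fast-spiking cells, was at 95.6 ± 20.9 CPM, and Kcnv1, a subunit that forms no channel alone, at 104 ± 7.12 CPM. Low families stood beside these. The pacemaker genes Hcn3 and Hcn2 were at 6.79 ± 2.37 and 6.34 ± 1.37 CPM, and the 4 Kcne genes summed to 7.36 ± 1.28 CPM in WT.

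Further families filled the middle of the range. Kcnb2, a delayed rectifier of neurons, was at 52.8 ± 9.76 CPM, and Kcnf1, a silent partner of that family, at 69.0 ± 12.8 CPM. Of the fast-spiking Kcnc family, Kcnc2 was at 47.4 ± 12.6 CPM. The β subunits of Kcna channels, Kcnab1 and Kcnab2, were at 78.5 ± 9.68 and 84.8 ± 29.9 CPM. Small-conductance calcium-activated channels, which shape the afterhyperpolarization, were represented by Kcnn2 at 30.2 ± 5.55 and Kcnn1 at 9.16 ± 3.59 CPM, and the neuronal β4 subunit of the large-conductance channel, Kcnmb4, by 51.3 ± 5.73 CPM. The inward rectifiers Kcnj4 and Kcnj2 were at 14.7 ± 3.16 and 13.5 ± 4.44 CPM, the mechanosensitive leak channel Kcnk2 at 38.8 ± 4.45 CPM, and Kcnt2, the relative of Kcnt1, at 20.99 ± 5.13 CPM. The ether-à-go-go genes Kcnh1 and Kcnh3 were at 52.1 ± 14.4 and 54.6 ± 14.6 CPM, below their relative Kcnh7. Cacna1g, a low-threshold T-type channel, was at 20.002 ± 3.91 CPM, and the auxiliary genes Cacna2d3 and Cacnb3 at 52.9 ± 9.74 and 48.7 ± 15.4 CPM.

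Some channel genes lie close to one another. In the mouse genome build GRCm38, 31 of the 117 genes had another channel gene, of the same or of another family, within 500 kb. The share for other sets of genes was not determined. Kcnj10 (chr1:172341210-172374085, + strand) lies 11892 bases from Kcnj9, at 54.6 and 73.3 CPM. Scn2b and Scn4b on chromosome 9 are 8325 bases apart and differed, at 128 and 28.2 CPM. Kcna1, Kcna6 and Kcna5 lie together on chromosome 6 and ranged from 239 through 19.5 to 0.943 CPM. Exon bases were shared with another annotated gene by 39 of the 117 genes, in 36 of them with a gene on the opposite strand, among them Cacnb4, Kcnh7, Kcnma1, Kcnj3 and Kcnj13. The strand setting of the authors' counting is not given in the sources used here, so reads of such overlapping genes could not be assigned with certainty.

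Whether the GFAP-IL6 genotype went with other channel gene levels was asked at each amount of RNA. No channel gene was called at an adjusted p under 0.05 at any amount, with edgeR's quasi-likelihood test across the whole table or with DESeq2. At 50 ng, 0 of 96 channel genes tested were called, beside 0.28% of all 11773 genes tested. At 10 ng it was 0 of 98, beside 0.332% of 12043. At 1 ng, 0 of 75 were called beside 0.0323%, and at 0.5 ng 0 of 65 beside 0.0117%. Calls were rare over the whole table, so the channel genes were not set apart by having none. An unadjusted p under 0.05 was reached by 3 of 96 channel genes at 50 ng (background 5.63%), all higher in GFAP-IL6 (4.13% of all genes were higher and 1.5% lower). At 10 ng it was 5 of 98 (background 7.48%), 3 higher (4.72%) and 2 lower (2.76%). The smaller amounts gave 2 of 75 (3.59%) and 1 of 65 (2.87%). DESeq2 gave 4, 5, 2 and 2 channel genes from 50 down to 0.5 ng. Over all genes it gave 507 higher and 161 lower of 18948 at 50 ng and 640 and 408 of 18383 at 10 ng. At 1 ng it was 371 and 276 of 15519, and at 0.5 ng 410 and 316 of 14594.

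The families showed the same. In every family, the summed levels of the 4 GFAP-IL6 and the 4 WT libraries overlapped at 50 and at 10 ng. Sodium channel α subunits summed to 794 ± 49.96 CPM in WT libraries and 893 ± 235 CPM in GFAP-IL6 libraries (50 ng, SD of 4), and the latter mean was 777 CPM when replicate 4 was left out. Calcium channel α1 subunits summed to 250.1 ± 22.8 against 311 ± 129 CPM, or 247 CPM when that library was left out. The 4 Kcnip genes summed to 253 ± 11.6 CPM in WT and 215 ± 17.8 CPM in GFAP-IL6 at 10 ng.

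GFAP-IL6 replicate 4 stood apart at 50 ng. It was the highest of the 8 libraries for 52 of the 96 channel genes tested (54.2%) and for 31.5% of all genes tested. Its median deviation from the other 7 libraries was 0.47 in log2(CPM + 1) over channel genes and 0.03 over all genes. In the 10 ng library of the same number it was highest for 31 of 98 channel genes (31.6%, all genes 16.4%). In the 50 ng library, Scn2a1 was at 524 CPM, Cacna1a at 126 CPM, 2.21 times the median of the other 7 libraries, and Cacna1b at 96.6 CPM, 2.73 times it. Shorter genes went the other way: Kcnip1 at 19.9, Cacng3 at 102 and Kcnk1 at 102 CPM were each lowest of the 8 in it. Markers of other cells differed in it too. Its summed level of oligodendrocyte markers was 3546 CPM, beside 4935 to 7414 CPM in the other 7 libraries, and that of endothelial markers 100.2 CPM beside 29.3 to 50.4 CPM. Microglial markers summed to 601 CPM, the lowest of the GFAP-IL6 libraries, beside 981 to 1358 CPM in the other 3, and Il6 was also lowest of those 4, at 0.717 CPM. The part of these cells in the channel gene values was not tested.

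The deviation followed gene length as given in the count table. Of the 21 channel genes of 8000 bases or more, 18 were over 0.5 higher in this library and 0 over 0.5 lower, whereas of the 33 with 2000 to 4000 bases, 6 were higher and 7 lower. Over all genes tested, 71.9% of those of 8000 bases or more were higher and 62.2% of those under 2000 bases were lower. Channel genes are long in this annotation, with a median of 4132 bases beside 3045 for all genes passing the same detection rule. Genes of 8000 bases or more deviated from genes under 2000 bases by 1.32 in median in this library. The value was 0.74, 0.47 and 0.39 in GFAP-IL6 replicate 4 from 10 down to 0.5 ng, 0.41 in GFAP-IL6 replicate 2 at 10 ng, and between -0.24 and 0.07 in the other 27 libraries. The cause of the difference between libraries was not tested.

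**Figure D2:**
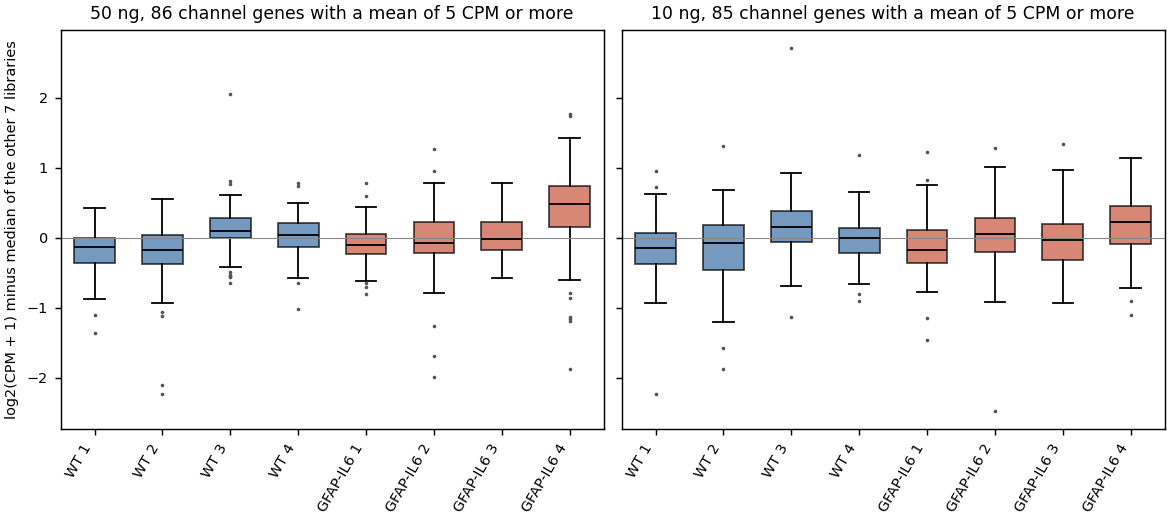
Deviation of each library from the median of the other 7 libraries in log2(CPM + 1), for channel genes with a mean of at least 5 CPM at 50 ng (left) and 10 ng (right); the box spans the quartiles with the median as a line, whiskers reach 1.5 times the box height at most, and points lie beyond them. GFAP-IL6 replicate 4 sits highest at both amounts, and the isolated point above WT replicate 3 is Kcnj13.

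**Figure D3:**
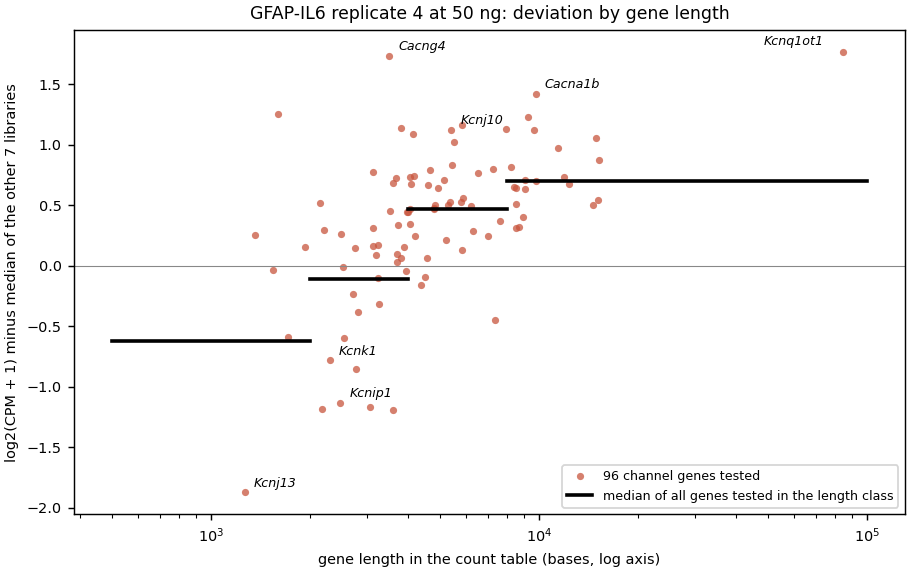
Deviation of GFAP-IL6 replicate 4 at 50 ng from the median of the other 7 libraries, in log2(CPM + 1), against gene length in bases (log axis) for the 96 channel genes tested, with the median of all genes tested in 4 length classes as black bars. The bars rise from -0.62 under 2000 bases to 0.70 at 8000 bases or more, and most of the longer channel genes lie above 0.

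The balance of the genotype comparison turned on this library. Of the 96 channel genes tested at 50 ng, 61 had a log2 fold change above 0 (background 49.6%), with a median of 0.11 beside -0.003 for all genes. With GFAP-IL6 replicate 4 left out, 43 of 97 lay above 0 and the median was -0.04. An unadjusted p under 0.05 was then reached by 3 genes higher and 4 lower, instead of 3 higher and 0 lower. Over all 11934 genes tested without that library, 464 were higher and 244 lower. At 10 ng, 55 of 98 lay above 0 (background 50.4%), and the median was 0.03 with all libraries and -0.03 with replicate 4 left out.

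Kcnq1ot1, the noncoding RNA, had the smallest p of the channel genes at both 50 and 10 ng. It lies at chr7:143203458-143296549 on the minus strand and is the longest gene of the set, with 84395 bases in the count table. At 50 ng it was at 117, 124, 78.7 and 111 CPM in WT replicates 1 to 4 and at 134, 186, 112 and 401 CPM in GFAP-IL6 replicates 1 to 4. The groups overlapped through GFAP-IL6 replicate 3, and replicate 4 was 3.42 times the median of the other 7 libraries. At 10 ng it was at 127, 131, 103 and 121 CPM in WT and at 139, 311, 114 and 283 CPM in GFAP-IL6. Here the 2 highest libraries were GFAP-IL6 replicates 2 and 4. In these, genes of 8000 bases or more deviated from genes under 2000 bases by 0.41 and 0.74. In replicate 2 at 50 ng, the second highest library there, that value was 0.07. The log2 fold change was 0.92 ± 0.29 (SE) at 50 ng (adjusted p = 0.479, edgeR) and 0.77 ± 0.21 at 10 ng (adjusted p = 0.145, edgeR). Leaving out GFAP-IL6 replicate 4 gave 0.36 ± 0.16 at 50 ng (adjusted p = 0.790, edgeR), and leaving out both replicates 2 and 4 gave 0.03 ± 0.16 at 10 ng. It was called at 10 ng when GFAP-IL6 replicate 1 (adjusted p = 0.0461, edgeR) or replicate 3 (adjusted p = 0.00125, edgeR) was left out, with no filter on low counts at both amounts (adjusted p = 0.000304, edgeR, and adjusted p = 0.000397, edgeR), but not with DESeq2. At 1 ng the means were 116 ± 58.0 and 218 ± 87.9 CPM, with a log2 fold change of 0.93 ± 0.34 (adjusted p = 0.997, edgeR), and at 0.5 ng 116 ± 70.4 and 136 ± 85.8 CPM. The highest library at 1 ng was GFAP-IL6 replicate 2 at 295 CPM, where long genes deviated from short ones by 0.04. Replicate 4 came next, with 0.47. The part of gene length in the Kcnq1ot1 values was not tested.

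The other genes with an unadjusted p under 0.05 at 50 ng were calcium channel genes. Cacng4, an auxiliary subunit of AMPA receptors, was at 3.32, 8.27, 8.07 and 8.36 CPM in WT and at 7.24, 7.46, 9.45 and 29.2 CPM in GFAP-IL6. Apart from replicate 4, the GFAP-IL6 values lay near the 3 higher WT values. Its log2 fold change of 0.995 ± 0.41 (adjusted p = 0.833, edgeR) became 0.21 ± 0.34 when that library was left out. Cacna1d, the L-type channel Cav1.3, was at 17.99, 15.8, 17.8 and 15.5 CPM in WT and at 21.1, 25.2, 17.1 and 43.2 CPM in GFAP-IL6, with the lowest GFAP-IL6 value inside the WT range. The log2 fold change of 0.65 ± 0.27 (adjusted p = 0.833, edgeR) became 0.26 ± 0.22.

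Kcnip1 and Kcns2 were the 2 channel genes lower at an unadjusted p under 0.05 at 10 ng. Kcnip1, a partner of Kcnd channels that is prominent in interneurons, was at 51.0, 35.0, 46.0 and 39.1 CPM in WT and at 36.9, 27.2, 29.4 and 16.7 CPM in GFAP-IL6. Of the 4 GFAP-IL6 libraries, 3 lay below all WT libraries. The log2 fold change was -0.69 ± 0.23 (adjusted p = 0.405, edgeR), and -0.42 ± 0.23 when GFAP-IL6 replicates 2 and 4 were left out. At 50 ng it was -0.18 ± 0.25, from 38.8 ± 11.8 and 36.8 ± 12.1 CPM. The summed level of the interneuron markers Pvalb and Sst was 743 to 887 CPM in WT and 619.9 to 813 CPM in GFAP-IL6 at 10 ng, and 815 to 908 against 501 to 811 CPM without overlap at 50 ng; its part in the Kcnip1 values was not tested. Kcns2, a silent partner of Kcnb channels, was at 9.45 ± 4.79 and 4.82 ± 1.47 CPM (-1.02 ± 0.47, adjusted p = 0.634, edgeR), with all 4 GFAP-IL6 values inside the WT range. Scn3a was higher at 10 ng, at 35.4 ± 10.2 and 50.6 ± 17.6 CPM (0.54 ± 0.24, adjusted p = 0.623, edgeR), whereas at 50 ng its log2 fold change was 0.26 ± 0.24, and -0.14 ± 0.16 when replicate 4 was left out.

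Kcnt1, a sodium-activated potassium channel at chr2:25863734-25918273, separated the genotypes at 10 and 1 ng. At 10 ng it was at 17.7, 20.5, 24.0 and 23.4 CPM in WT and at 26.3, 26.3, 33.7 and 33.8 CPM in GFAP-IL6. All 4 GFAP-IL6 libraries lay above all WT libraries, as for 1 of 98 channel genes at that amount (background 4.1%). The log2 fold change was 0.47 ± 0.23 (adjusted p = 0.667, edgeR). At 1 ng it was at 1.96, 2.73, 8.03 and 18.8 CPM in WT, from 3, 1, 10 and 46 counts, and at 31.7, 34.4, 41.8 and 41.4 CPM in GFAP-IL6, from 44, 9, 75 and 116 counts. The groups again did not overlap, as for 2 of 75 channel genes (background 3.07%), and the log2 fold change was 2.11 ± 0.71 (adjusted p = 0.997, edgeR). Without WT replicate 3, which held 13 Il6 counts at this amount, it was 2.04 ± 0.78 (adjusted p = 0.998, edgeR). At 50 ng it was at 24.6, 28.6, 35.9 and 34.2 CPM in WT and 20.9, 24.3, 32.5 and 35.1 CPM in GFAP-IL6, with overlap and a log2 fold change of -0.15 ± 0.22.

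Whether the genotype difference itself depended on the amount was tested as an interaction. For Kcnt1 it was larger at 10 than at 50 ng by 0.62 ± 0.30 (adjusted p = 0.9999, edgeR) and larger at 1 than at 10 ng by 1.57 ± 0.66 (adjusted p = 0.999, edgeR). Neither passed the adjustment. Of the channel genes, 0 of 98, 0 of 91 and 0 of 82 were called for 10 against 50, 1 against 10 and 0.5 against 1 ng, beside 0% of all genes each time. An unadjusted p under 0.05 was reached by 1 (background 1.38%), 2 (4.23%) and 1 (4.39%). DESeq2 called 0 in each, with 2, 3 and 1 at an unadjusted p under 0.05. Over all genes it gave 121 higher and 118 lower of 19760, 448 and 435 of 18649, and 375 and 301 of 16304. These fits took the libraries of both amounts as independent. Same-numbered libraries of a genotype correlated in their deviations by 0.0516 to 0.510 between 10 and 50 ng. A replicate block in edgeR also called 0 channel genes in each.

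**Figure D4:**
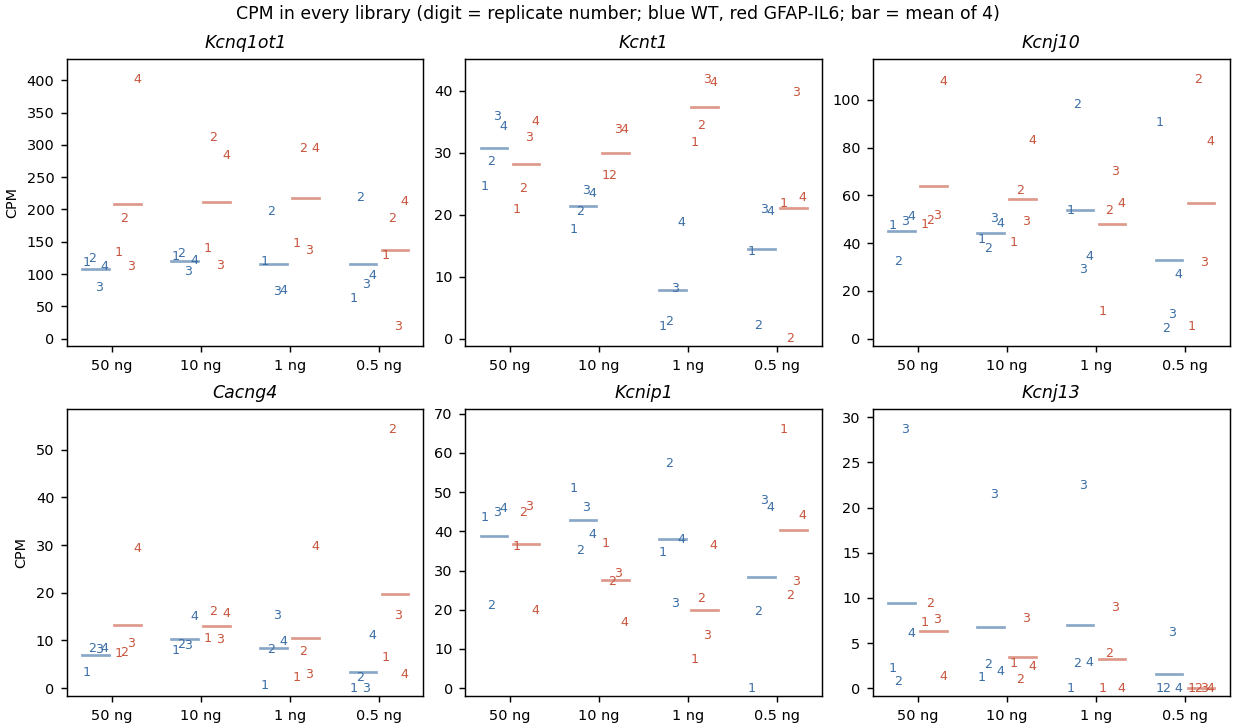
CPM of 6 channel genes in each of the 32 libraries by amount of RNA, with the digit giving the replicate number, WT in blue, GFAP-IL6 in red and bars at the mean of 4. Kcnq1ot1 is highest in GFAP-IL6 replicate 4 at 50 ng and in replicates 2 and 4 at 10 ng, Kcnt1 separates the genotypes at 10 and 1 ng, and Kcnj13 is highest in WT replicate 3 at all 4 amounts.

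Few other genes separated. At 50 ng, 1 channel gene of 96 had no overlap between genotypes (background 3.33%). It was Kcnv1, at 113, 109.8, 108 and 109 CPM in WT and 97, 98, 93.6 and 101 CPM in GFAP-IL6. Its spread within each genotype was small, and the log2 fold change of -0.21 ± 0.16 was not called (adjusted p = 0.837, edgeR). At 10 ng Kcnv1 was at 108 ± 18.3 and 91.1 ± 5.40 CPM, with overlap. Cacna1a was lower without overlap at 1 ng, at 89.1 ± 2.16 against 68.6 ± 19.998 CPM, while its GFAP-IL6 mean was above the WT mean at the other 3 amounts. Kcnq5 was higher without overlap at 0.5 ng, at 28.4 ± 9.97 against 71.7 ± 23.2 CPM (1.32 ± 0.61, adjusted p = 0.9999, edgeR), as for 1 of 65 channel genes there (background 2.81%), and overlapped at the larger amounts. No channel gene kept the genotypes apart at both 50 and 10 ng.

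Channel genes known for glia and vessels were read beside the markers of those cells. Kcnj10, the astrocyte channel that takes up potassium, was at 47.6, 32.3, 49.0 and 51.2 CPM in WT and at 47.8, 49.4, 51.4 and 108 CPM in GFAP-IL6 at 50 ng. Replicate 4 held the difference, with a log2 fold change of 0.48 ± 0.24 (adjusted p = 0.835, edgeR) and 0.07 ± 0.15 when it was left out. In the same library the 7 astrocyte markers summed to 4125 CPM. The glutamate transporter Slc1a2 alone held 2602 CPM of this, beside 913 to 1202 CPM in the other 7 libraries. The remaining markers together were lowest of the 8 libraries in it, and Gfap was at 30.6 CPM, the lowest of the 4 GFAP-IL6 libraries. Of the 7 astrocyte markers, 1 was called higher at 50 ng, Gfap, with 11.3 ± 2.46 CPM in WT and 53.2 ± 19.6 CPM in GFAP-IL6, and their summed level was 2819 to 3361 against 3109 to 4125 CPM. Kcnk13 was at 6.66 ± 1.94 and 7.16 ± 3.64 CPM (0.14 ± 0.36), while 2 of 8 microglial markers, Ctss and C1qb, were called higher. Kcnj8 was at 3.90 ± 0.673 and 6.53 ± 4.45 CPM (0.54 ± 0.48), with overlap, while the summed level of 3 mural cell markers did not overlap, at 51.8 to 73.0 CPM in WT and 92.7 to 119 CPM in GFAP-IL6. Kcnj16 was at 13.3 ± 3.65 and 13.9 ± 2.16 CPM. The summed level of 6 markers of striatum, a region next to the cortex, was 158 to 263 CPM in WT and 109 to 160.5 CPM in GFAP-IL6. Scn4b, a β subunit prominent in striatal neurons, was at 30.2 ± 9.70 and 26.2 ± 8.44 CPM (-0.24 ± 0.26), and the part of striatal RNA in it was not tested.

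Kcnj13 and Kcne2 were high in 1 WT replicate number. Kcnj13, an inward rectifier of the choroid plexus, was at 2.21, 0.752, 28.7 and 6.10 CPM in WT and at 7.24, 9.33, 7.61 and 1.25 CPM in GFAP-IL6 at 50 ng. WT replicate 3 held 103 counts at that amount. It was again the highest library at the smaller amounts, with 21.5, 22.5 and 6.17 CPM from 10 down to 0.5 ng. Kcne2, an auxiliary subunit of the same epithelium, was at 4.45 CPM (16 counts) in WT replicate 3 at 50 ng and at 0 to 0.933 CPM in the other 7 libraries. Both choroid plexus markers moved with them. Ttr was at 3355 CPM in WT replicate 3 and 52.7 to 335 CPM in the others, and Folr1 at 13.9 CPM beside 0 to 2.32 CPM. Kcnj13 was not called between genotypes (-0.79 ± 0.63, adjusted p = 0.837, edgeR), and Kcne2 did not pass the filter on low counts. The part of choroid plexus RNA in other genes of this library was not tested.

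The 250 bases before the start of Kcnj13 and of Kcnj10 are shown, since each of these genes is known for 1 non-neuronal cell type and had 1 library far above the others. The sequences are from RefSeq, build GRCm38.p6, printed 5′ to 3′ on the strand of the gene. In Kcnj13, at chr1:87394730-87394979 on the minus strand, capitals mark TATAAA, 29 bases before the start. In Kcnj10, at chr1:172340960-172341209 on the plus strand, capitals mark CG dinucleotides.
Kcnj13: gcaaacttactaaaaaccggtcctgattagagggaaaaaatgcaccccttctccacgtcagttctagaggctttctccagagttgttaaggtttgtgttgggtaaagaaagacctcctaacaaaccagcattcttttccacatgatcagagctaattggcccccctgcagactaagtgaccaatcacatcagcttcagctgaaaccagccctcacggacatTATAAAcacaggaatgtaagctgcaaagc
Kcnj10: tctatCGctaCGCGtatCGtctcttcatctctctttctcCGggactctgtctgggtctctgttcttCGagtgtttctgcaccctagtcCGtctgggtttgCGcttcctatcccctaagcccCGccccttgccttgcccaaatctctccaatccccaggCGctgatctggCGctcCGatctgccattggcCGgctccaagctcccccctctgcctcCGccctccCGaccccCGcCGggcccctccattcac
The Kcnj13 stretch has 45.2% G and C and 3 CG dinucleotides, and that of Kcnj10 62% and 17. TATAAA on either strand occurred in this window in 12.4% of the 32851 promoters of the table. Since 31 of the 117 channel genes had no entry, promoter content was not compared for the whole set.

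Proteins that work with the channels were examined from a list of 39 genes: anchors and adhesion molecules of the axon, accessory subunits, pumps and cotransporters, and calmodulins. All 39 were tested, and 0 were called between genotypes at 50 or 10 ng with edgeR. An unadjusted p under 0.05 was reached by 2 higher and 0 lower at 50 ng, and by 3 higher and 1 lower at 10 ng, where the share over all genes was 5.63% and 7.48%. Their median log2 fold change at 50 ng was 0.11, beside -0.003 for all genes, and -0.06 when GFAP-IL6 replicate 4 was left out. Abcc9, a partner of Kcnj8, was at 1.60 ± 0.383 and 4.401 ± 1.79 CPM (1.45 ± 0.44, adjusted p = 0.439, edgeR). The axonal anchors Ank2 and Ank3 had log2 fold changes of 0.28 ± 0.19 and 0.21 ± 0.19.

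Smaller amounts of RNA left fewer channel genes detected. At 50 ng, which the rule used, 112 ± 4.14 of the 117 had at least 1 count per library (SD over 8). It was 107 ± 3.49 with 10 ng, 91.5 ± 6.41 with 1 ng and 80.6 ± 5.88 with 0.5 ng. As a share, these 3 smaller amounts gave 91.2%, 78.2% and 68.9%, beside 91.4%, 73.3% and 65.7% of all genes chosen by the same detection rule. Counts in all 8 libraries were found for 95, 66 and 50 channel genes, and 1, 6 and 15 had none in any library. Libraries were also shallower at the 2 smallest amounts. When each library was thinned to the lowest total among the libraries of its genotype and number, 104 ± 8.84, 102 ± 5.37, 91.1 ± 6.5995 and 80.2 ± 5.80 channel genes were detected from 50 down to 0.5 ng.

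**Figure D5:**
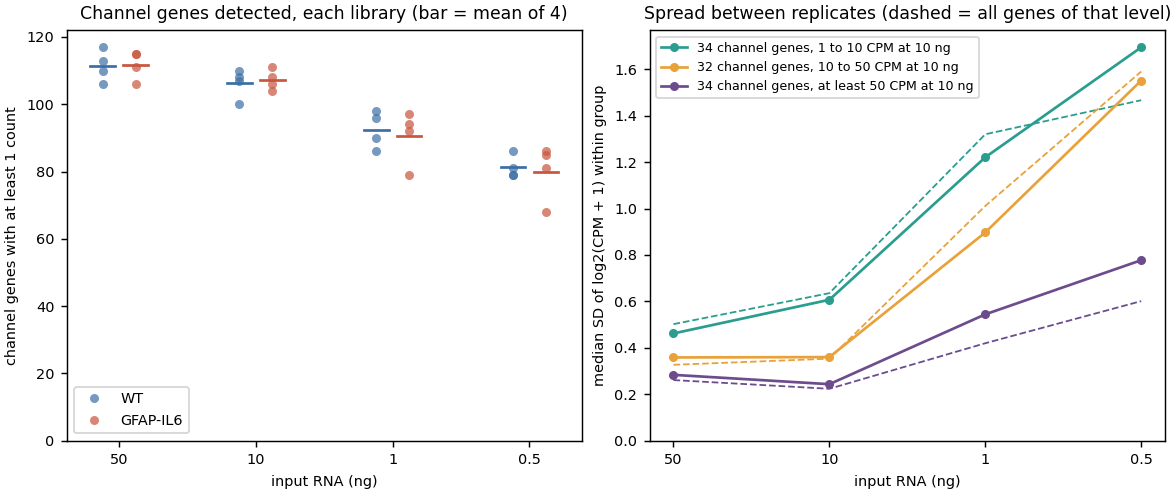
Left, number of the 117 channel genes with at least 1 count in each library by amount of RNA, WT in blue and GFAP-IL6 in red, with bars at the mean of 4. Right, median over channel genes of the SD of log2(CPM + 1) between replicates in 3 level classes (solid) and over all genes of the same class (dashed): for genes of at least 50 CPM it is 0.24 at 10 ng and 0.78 at 0.5 ng.

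The levels kept their order while the spread grew. Mean levels of the 117 channel genes in log2(CPM + 1) had a Pearson r of 0.978 between 10 and 1 ng and of 0.965 between 10 and 0.5 ng, across genes, which share the libraries and their depth and are not independent replicates. Among the 34 channel genes of at least 50 CPM at 10 ng, the median SD between replicates was 0.28, 0.24, 0.54 and 0.78 from 50 down to 0.5 ng, in log2(CPM + 1). For all 3519 genes of that class it was 0.26, 0.22, 0.42 and 0.60. The means of Scn2a1 were 354 ± 46.5, 348 ± 39.3 and 347 ± 59.7 CPM from 10 down to 0.5 ng, and those of Cacnb4 476 ± 51.6, 462 ± 122.01 and 465 ± 133 CPM.

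No channel gene was called between amounts with edgeR, with or without a replicate block. It was 0 of 86 for 1 against 10 ng (background 0.392%), 0 of 77 for 0.5 against 1 ng (0.0104%) and 0 of 88 for 0.5 against 10 ng (0.667%). An unadjusted p under 0.05 was reached by 3 (8.37%), 1 (5.35%) and 6 (9.16%) channel genes. DESeq2 called 0, 0 and 4, the last being 1 higher and 3 lower at 0.5 ng, the lower ones Kcnk10, Kcns1 and Kcns2. These were 4 of 116 channel genes, a share similar to that over all genes, where 208 were higher and 352 lower of 18575. Kcns2 was at 7.13 ± 4.11 CPM at 10 ng and 0.852 ± 1.47 CPM at 0.5 ng, lower in 8 of 8 same-numbered libraries (-3.08 ± 0.89, adjusted p = 0.141, edgeR). Its counts at 0.5 ng were few, 3, 0, 0 and 10 in WT and 0, 0, 1 and 0 in GFAP-IL6 replicates 1 to 4. Its relative Kcns1 was at 12.3 ± 4.25 and 2.09 ± 3.18 CPM, also lower in 8 of 8 (-2.28 ± 0.79, adjusted p = 0.282, edgeR). Both encode silent subunits that modify Kcnb channels. Kcnk10 (TREK-2) had 93 counts at 10 ng and 0 at 0.5 ng. With 3 counts over the 8 libraries as the floor, this was at least 9.66-fold lower, for counting error only. Replicates differed beyond counting error, so the fall may be smaller than that. Between 10 and 1 ng, Kcnk1 was lower in 8 of 8, at 153 ± 22.5 and 118 ± 24.0 CPM (-0.32 ± 0.13, adjusted p = 0.486, edgeR). Libraries of 50 and 10 ng were set side by side without a test, since the rule used the former, and the median log2 fold change of 10 against 50 ng over 97 channel genes was -0.01.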

How the data were processed

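Read counts per gene were analysed for 32 frontal cortex samples. Per the methods and the labels, the authors trimmed poly(A) stretches, aligned reads with STAR 2.4 to mm10, and deposited raw counts of reads per annotated gene made with featureCounts (GENCODE). Here, counts were scaled to CPM, and genotypes within each amount, amounts, and their interaction were tested with edgeR 4.0.16 (TMM, filterByExpr, quasi-likelihood test, Benjamini-Hochberg over all genes tested). DESeq2 1.42.0, its size factors, no filter, a replicate block, thinned counts and leaving out libraries were alternatives. The scripts were tested on simulated data. Replicates of a group all differed beyond sampling noise (chi-square per degree of freedom at least 2.37, 48 pairs). Coordinates and overlaps came from a GENCODE annotation of GRCm38. Named genes were up to 2 with the highest mean per family, any called between genotypes, the 5 with the smallest p at 50 and at 10 ng, any separating the genotypes at both, the 5 largest called changes between amounts in each direction, and a set list of well-known channels; Kcna5, Kcna6, Kcne2, Kcne3, Kcng3, Kcnj13, Kcnj5, Kcnk10, Kcnk5, Kcnn4, Kcnq1 and Kcns1 were named after their values were seen. Some genes of the set are not reported here. The genes and lists were chosen with earlier results of these data known.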

Additional observations from a re-analysis of the deposited data

Results flagged for a closer look

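In 248 groups of 4 libraries (62 named channel genes, both genotypes, 50 and 10 ng), 27 held a highest or lowest library whose gap to the next exceeded Dixon's 95% critical value, or 10.9%. Chance gives about 1 in 20 for normally distributed values. The genes share the same libraries, so the groups are not independent and the 2 rates are not directly comparable. The values are in CPM, and libraries were the highest of their group unless marked as the lowest. GFAP-IL6 replicate 4 at 50 ng accounted for 11: Cacna1b (96.6), Cacna1e (117), Cacna2d1 (236), Cacng2 (111), Cacng4 (29.2), Kcnd2 (148), Kcnh1 (84.4), Kcnj10 (108), Kcnj2 (19.5), Scn2a1 (524) and Scn3a (87.8). Its 10 ng counterpart was apart for Cacng8 (0.203, from 2 counts beside 0 in the rest of its group) and Kcnmb4 (55.0). Among the other GFAP-IL6 libraries it was replicate 2 at 50 ng for Cacng8 (1.87, from 2 counts) and replicate 1 at 10 ng for Hcn3 (11.6). WT replicate 2 was apart for Cacnb3 (25.6, lowest), Kcnip1 (21.1, lowest) and Kcnn1 (1.504, lowest) at 50 ng and for Cacna1c (10.6, lowest), Hcn3 (1.32, lowest) and Kcnn1 (2.64, lowest) at 10 ng. WT replicate 1 was apart for Cacng4 (3.32, lowest) and Kcnip4 (131) at 50 ng and for Kcne4 (2.47) and Kcnj16 (7.20, lowest) at 10 ng. The remaining 2 were WT replicate 3 at 10 ng for Kcnj4 (24.3) and WT replicate 4 at 50 ng for Cacnb4 (518). The causes were not tested.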

How the results depend on the processing

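The filter on low counts left 65 of 117 channel genes to test at 0.5 ng. Calls between genotypes stayed at 0 with DESeq2 and with its size factors. With no filter on low counts, 1 was called at 50 ng and 1 at 10 ng (Kcnq1ot1 both times) and 1 for 0.5 against 10 ng (Kcnk10), where DESeq2 called 4. An unadjusted p under 0.05 was then reached by 9, 5 and 3 channel genes at 50, 1 and 0.5 ng, and by 2 at 0.5 ng with DESeq2. Over all genes with no filter, 957 were higher and 343 lower of 18948 at 50 ng. At 1 ng it was 587 and 504 of 15519, and at 0.5 ng 532 and 506 of 14594. Same-numbered libraries of the genotypes correlated in their deviations by 0.0361 to 0.189 at 50 ng and 0.0390 to 0.131 at 10 ng. These correlations were low but positive. Replicate 2 also had the lowest total counts of its genotype at every amount in both genotypes. What same-numbered libraries share was not tested. The replicate block called 1 channel gene at 10 ng (Kcnq1ot1, adjusted p = 0.00335, edgeR) and none at the other amounts. At an unadjusted p under 0.05 it gave 5 at 50 ng, beside 541 higher and 365 lower of all 11773 genes, and 0 at 0.5 ng. Leaving out 1 library gave 0 to 1 calls between genotypes at 10 ng and 0 at the other amounts. For 0.5 against 10 ng, all libraries of 1 replicate number were left out together, which gave 0 to 1 calls (Kcnk13, without replicate 4). At an unadjusted p under 0.05, leaving out 1 library gave 2 to 8, 2 to 9, 2 to 4 and 0 to 2 genes between genotypes from 50 down to 0.5 ng. The 8 at 50 ng came without GFAP-IL6 replicate 1, beside 679 higher and 320 lower of all 12001 genes. At 10 ng, leaving out GFAP-IL6 replicate 3 gave 6 higher and 3 lower channel genes, beside 729 and 528 of all 12124. With both GFAP-IL6 replicates 2 and 4 left out at 10 ng, chosen after seeing the data, 8 of 99 had an unadjusted p under 0.05 (1 higher, 7 lower). Over all 12667 genes in that fit, 378 were higher and 277 lower. The log2 fold changes of Cacng4 (-0.076) and Kcnj10 (-0.053) changed sign in it. Leaving out 1 library moved the log2 fold change across 0 for Kcnip1 (-0.35 to 0.028), Kcns2 (-0.17 to 0.21) and Scn3a (-0.14 to 0.39) at 50 ng. Detection averaged 100.5 and 99.5 channel genes above 1 CPM at 50 and 10 ng. With at least 1 count as the rule it averaged 111.625 and 106.75, and 103.88 and 102.38 after thinning. The causes were not tested.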
